A study of Homo sapiens with 4 samples.

Results

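E-cadherin and the catenins were followed on the arrays through 8 gene names: CDH1 (E-cadherin), CTNND1, CTNNB1, JUP, CTNNA1, CTNNA2, CTNNAL1 and CTNNBIP1. Every probe with one of these names in all 4 array files was taken, which gave 14 of 41000 probes and 8 of 30982 gene names. Of the 14 probes, 12 were well above background in both channels on every array, and both probes of CTNNA2 were not above background in either channel on any array. The genes were chosen by name, with earlier results of these data known, and the study had already reported CDH1 as changed on these arrays. CTNNAL1 and CTNNBIP1 are relatives or regulators of catenins and not parts of the E-cadherin complex as described below. The comparison asks whether the change of CDH1 in cells with N-BLR shRNA extends to the cytoplasmic partners of E-cadherin.

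The arrays carried total RNA of HCT116, an established human colon cancer cell line. Clones #3-1 and #4-7 are each 1 stable clone with the N-BLR shRNA vector of the same number, directed at the long non-coding RNA N-BLR, and each was hybridised to 2 arrays named as biological replicates. Every array also received HCT116 RNA with the empty vector, which was 1 control preparation for both clones as far as the labels tell. The labels give lentiviral delivery of the vectors, and the study's methods give transfection of a retroviral shRNA plasmid followed by drug selection of clones. No probe is named for N-BLR, so its depletion was not checked here. Whether the replicates came from separate cultures is not stated beyond their name, so the p-values measure the spread between these arrays.

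A property of the arrays touches every direction below. The labels put the shRNA clone in the red dye (Cy5) and the empty vector in the green dye (Cy3) on all 4 arrays, with no dye swap. If the green channel held the same control RNA throughout, it would be the channel that stays alike between the arrays of the clones. Between the arrays of clone #3-1 and those of clone #4-7, 38 of 41000 probes differed in the Cy5 level past the threshold used here (unadjusted p of 0.001 in limma's moderated test), a share of 0.0927%, and 7542 differed in the Cy3 level, a share of 18.4%. The median size of the difference between the clones was 0.06 on the log2 scale in Cy5 and 0.14 in Cy3, against 0.06 between the arrays of a clone in either channel. Leaving out any 1 array gave 119 to 672 probes in Cy5 and 4161 to 4934 in Cy3. All 4 arrays lay on 1 slide with 1 scan time. The channel labelled as the common control thus varied with the clone, and the channel labelled as the clone did not. Which RNA each dye held was not tested beyond these counts, so each ratio is given as Cy5 over Cy3. With the labels taken as they stand, a negative value is lower in the shRNA clone. With the dyes exchanged, the sign of every value turns and its size and test stay as they are. The direction that follows from the labels is opposite to the one the study describes for E-cadherin. The study reports higher E-cadherin in both clones, on the arrays and also by qRT-PCR and immunofluorescence. It also shows a Western blot for E-cadherin in the same clones.

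E-cadherin is the adhesion receptor of epithelial adherens junctions and binds the E-cadherin of the neighbouring cell. Its cytoplasmic tail carries p120-catenin (CTNND1), which keeps the cadherin at the membrane, and β-catenin (CTNNB1) or plakoglobin (JUP), which bind α-catenin (CTNNA1, CTNNA2) and through it the actin cytoskeleton. β-catenin released from the junction is also the coactivator of TCF/LEF factors in Wnt signalling, and HCT116 is known to carry an activating mutation of it. Loss of E-cadherin at the junction is a hallmark of the epithelial-to-mesenchymal transition.

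The values of CDH1, JUP and CTNNBIP1 rest on 1 probe each and those of CTNNB1 on a pair, so the first 30 bases of each of these probes are given, 5′ to 3′, to show which stretch of the transcript was measured.
CDH1 probe A_23_P206359: aaatcaaccctgcaatcactttttggaatt
JUP probe A_23_P501822: atggagtgagtcacctgctccagaagatgc
CTNNBIP1 probe A_23_P23584: cggcctgtctcatcttctgaagaggaaaag
CTNNB1 probe A_23_P29495: tgatcaaaaactatttgggatatgtatggg
CTNNB1 probe A_23_P29499: agtttcctatgggaacaattgaagtaaact
In build hg17 the files place the 60 bases of these probes at chr16:67426715-67426774, chr17:37164676-37164735, chr1:9842654-9842713, chr3:41256753-41256812 and chr3:41256258-41256317, in the same order, with JUP and CTNNBIP1 on the minus strand. No annotation of that build was used, so exon and UTR are not given. The α-catenin genes are close paralogues, and a probe of each is shown whole because the stretches they cover overlap between the genes. Capitals mark the bases that differ within the overlap.
CTNNA1 probe A_24_P80633: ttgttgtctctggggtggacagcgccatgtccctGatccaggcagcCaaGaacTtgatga
CTNNA2 probe A_24_P33477: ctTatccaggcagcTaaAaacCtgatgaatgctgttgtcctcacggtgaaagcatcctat
The last 28 bases of the CTNNA1 probe and the first 28 of the CTNNA2 probe share 24 bases (85.7%). The CTNNA1 probe lies at chr5:138296287-138297435 on hg17, a span of 1149 bases for a probe of 60, and the CTNNA2 probe at chr2:80786386-80786445.

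**Figure D1:**
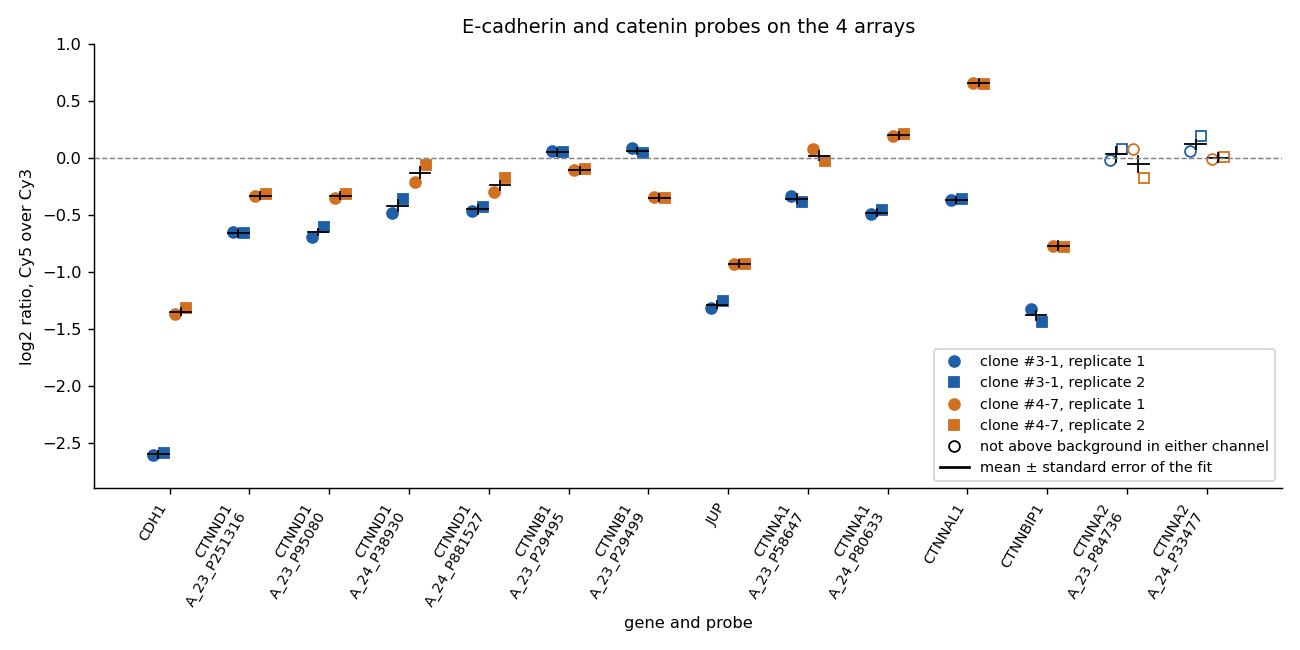
Log2 ratio of Cy5 over Cy3 (vertical axis) for each probe of E-cadherin and the catenins (horizontal axis) on each of the 4 arrays, with the mean of each clone and the standard error of the fit (open symbols, not above background). CDH1 lies lowest in both clones, JUP and CTNNBIP1 follow, CTNNB1 lies near 0 in clone #3-1, and CTNNAL1 lies on opposite sides of 0 in the clones.

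CDH1 had the largest ratio of the set in both clones, and its ratio in clone #3-1 was beyond that in clone #4-7. Its probe was printed in 10 spots on each array. The log2 ratio was -2.61 and -2.59 on the arrays of clone #3-1 and -1.37 and -1.32 on those of clone #4-7. The values of the clones were far apart and those within a clone nearly met. Single spots ran from -2.69 to -2.45 in clone #3-1 and from -1.43 to -1.26 in clone #4-7. The mean was -2.60 ± 0.01 (SD, n = 2) in clone #3-1, or 6.06-fold more signal in Cy3 than in Cy5, and -1.35 ± 0.03 (SD, n = 2) in clone #4-7, or 2.54-fold. Both passed limma's moderated test, with adjusted p = 5.8e-06 and 1.6e-05. The difference between the clones was -1.25 (SE 0.04, adjusted p = 6.7e-05 in limma). Among all 41000 probes, the size of the CDH1 ratio stood at the 99.9th percentile in clone #3-1 and at the 99.3rd in clone #4-7.

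The channels of CDH1 show where this difference lay. The normalised log2 intensity in Cy5 was 8.90 and 8.78 on the arrays of clone #3-1 and 8.79 and 8.90 on those of clone #4-7, so the arrays of the clones overlapped. In Cy3 it was 11.51 and 11.37 against 10.16 and 10.22, with no overlap. The difference between the clones was -0.01 (SE 0.07, adjusted p = 0.98 in limma) in Cy5 and 1.25 (SE 0.07, adjusted p = 0.00021) in Cy3. The scanner's own mean intensities, before any correction, were 740, 711, 707 and 766 in Cy5, in the same order of arrays, and 1649, 1538, 696 and 706 in Cy3. The CDH1 signal was thus alike on all 4 arrays in the dye labelled as the clone, and about as different as the ratio in the dye labelled as the empty vector.

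p120-catenin, the partner that holds E-cadherin at the membrane, was lower in Cy5 with all 4 of its probes in clone #3-1, and less so in clone #4-7. Probe A_23_P251316 (chr11:57342891-57342950, hg17), gave -0.65 and -0.66 on the arrays of clone #3-1 and -0.33 and -0.32 on those of clone #4-7. The arrays of the clones did not overlap. The sequence of A_23_P95080 (chr11:57338359-57338418) is shown because this probe, from another stretch of the gene, gave nearly the same means.
CTNND1 probe A_23_P95080: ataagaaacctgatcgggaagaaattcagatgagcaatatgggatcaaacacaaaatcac
Its ratios were -0.69 and -0.61 in clone #3-1 and -0.35 and -0.32 in clone #4-7. The means of these probes were -0.66 and -0.65 in clone #3-1 (adjusted p = 4.7e-05 and 8.4e-05 in limma) and -0.33 for both in clone #4-7 (adjusted p = 0.00041 and 0.00082). The probes A_24_P38930 and A_24_P881527 gave -0.42 and -0.45 in clone #3-1, both past the threshold, and -0.13 and -0.24 in clone #4-7, neither past it. The arrays of A_24_P38930 in clone #4-7 lay apart, at -0.21 and -0.06. The difference between the clones passed for A_23_P251316 at -0.33 (SE 0.04, adjusted p = 0.002 in limma), and it lay between -0.32 and -0.21 for the other 3 probes, which did not pass. In clone #4-7 the calls of A_23_P251316 (-0.32 and -0.33) and A_23_P95080 (-0.32 and -0.35) were lost without replicate 1 and without replicate 2 of that clone (unadjusted p from 0.0014 to 0.0035 in limma). The call of the difference was lost without any 1 of the 4 arrays (-0.33 to -0.32, unadjusted p from 0.0024 to 0.0035). The call of A_24_P38930 in clone #3-1 was lost without either array of that clone, at -0.36 without replicate 1 and -0.48 without replicate 2, and that of A_24_P881527 without replicate 1, at -0.43.

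β-catenin and plakoglobin, which bind the same region of the E-cadherin tail, had different ratios. β-catenin stayed near 0 in clone #3-1, where its probe A_23_P29495, with 10 spots, gave 0.06 and 0.05, and A_23_P29499 gave 0.09 and 0.04. In clone #4-7 the first gave -0.11 and -0.10 and the second -0.34 and -0.35. The probes of the gene differed in clone #4-7: the mean of A_23_P29495, -0.11 (95% interval -0.18 to -0.04), did not pass the threshold (adjusted p = 0.024 in limma), while that of A_23_P29499, -0.35 (-0.42 to -0.27), did (adjusted p = 0.00042). In clone #3-1 the intervals of the means were -0.02 to 0.12 and -0.01 to 0.14, and neither probe passed. The difference between the clones passed for A_23_P29499, at 0.41 (SE 0.04, adjusted p = 0.0012). The call of A_23_P29499 in clone #4-7 was lost without either array of that clone (-0.35 and -0.34, unadjusted p = 0.0015 and 0.0017 in limma), and that of its difference without replicate 1 of clone #3-1 or either array of clone #4-7 (0.39, 0.42 and 0.40).

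Plakoglobin (JUP), the close relative of β-catenin that also serves desmosomes, had the ratio nearest to that of CDH1 in clone #4-7. The ratio was -1.32 and -1.26 in clone #3-1 and -0.93 on both arrays of clone #4-7. No array of one clone reached the values of the other. The mean was -1.29 ± 0.05 (SD, n = 2) in clone #3-1, or 2.44-fold more signal in Cy3, and -0.93 ± 0.00 (SD, n = 2) in clone #4-7, or 1.90-fold. Both passed (adjusted p = 1.6e-05 and 3.6e-05 in limma), and the sizes stood at the 99.1st and 97.9th percentile of all probes. Between the clones the ratio differed by -0.36 (SE 0.04, adjusted p = 0.0022 in limma). That difference no longer passed when any 1 of the 4 arrays was left out (-0.39 to -0.33, unadjusted p from 0.0012 to 0.0037).

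α-catenin, the link from the cadherin complex to actin, was lower in Cy5 in clone #3-1 and not in clone #4-7. CTNNA1 probe A_24_P80633 gave -0.49 and -0.46 on the arrays of clone #3-1 and 0.19 and 0.21 on those of clone #4-7. The second probe, A_23_P58647 (chr5:138298286-138298345), gave -0.33 and -0.39 in clone #3-1 and 0.08 and -0.03 in clone #4-7. With both probes the clones did not overlap, and in clone #4-7 the arrays of A_23_P58647 lay on either side of 0. In clone #3-1 the means were -0.48 (adjusted p = 0.00012 in limma) and -0.36 (adjusted p = 0.0011). In clone #4-7 the mean of A_24_P80633 was 0.20 (adjusted p = 0.0027), a call that was lost when any 1 of the 4 arrays was left out (0.19 to 0.21, unadjusted p from 0.0021 to 0.012). There the mean of A_23_P58647 was 0.02 (95% interval -0.08 to 0.13), and its sign turned under other settings. The call of A_23_P58647 in clone #3-1 was lost without either array of that clone (-0.39 and -0.33). The difference between the clones passed for A_24_P80633, at -0.68 (SE 0.04, adjusted p = 0.00025), and did not for A_23_P58647, at -0.38 (SE 0.06, adjusted p = 0.0045). CTNNA2, the α-catenin of neurons, gave scanner intensities of 76 to 98 in Cy5 and 55 to 67 in Cy3 with its 2 probes. Neither was above background on any array, so no fold is given, although the CTNNA2 probe shown above overlaps a stretch that CTNNA1 nearly shares.

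CTNNAL1 (α-catulin), a relative of α-catenin and vinculin, passed the threshold with opposite signs in the clones. Its probe (chr9:108784560-108784619, hg17) gave -0.37 and -0.36 on the arrays of clone #3-1 and 0.66 and 0.65 on those of clone #4-7. The means were -0.37 ± 0.01 (SD, n = 2) and 0.66 ± 0.01 (SD, n = 2), and both passed (adjusted p = 0.00026 and 5.7e-05 in limma). The difference was -1.02 (SE 0.04, adjusted p = 8.7e-05). Its Cy5 level was 14.84, 14.73, 14.71 and 14.71 on the 4 arrays, and its Cy3 level was 15.21 and 15.09 in clone #3-1 against 14.05 and 14.06 in clone #4-7. The Cy5 values lay within 0.13 of each other over all 4 arrays, while the Cy3 values of the clones were far apart.

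CTNNBIP1 (ICAT), a small inhibitor that keeps β-catenin from TCF factors, followed CDH1 and JUP. Its ratio was -1.33 and -1.44 in clone #3-1 and -0.77 and -0.78 in clone #4-7. The groups did not overlap. The mean was -1.38 ± 0.08 (SD, n = 2), or 2.61-fold more signal in Cy3, and -0.77 ± 0.01 (SD, n = 2), or 1.71-fold. Both passed (adjusted p = 1.9e-05 and 7.4e-05 in limma), at the 99.3rd and 96.4th percentile of size. Clone #3-1 minus clone #4-7 was -0.61 (SE 0.05, adjusted p = 0.00068) and passed with any 1 array left out.

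**Figure D2:**
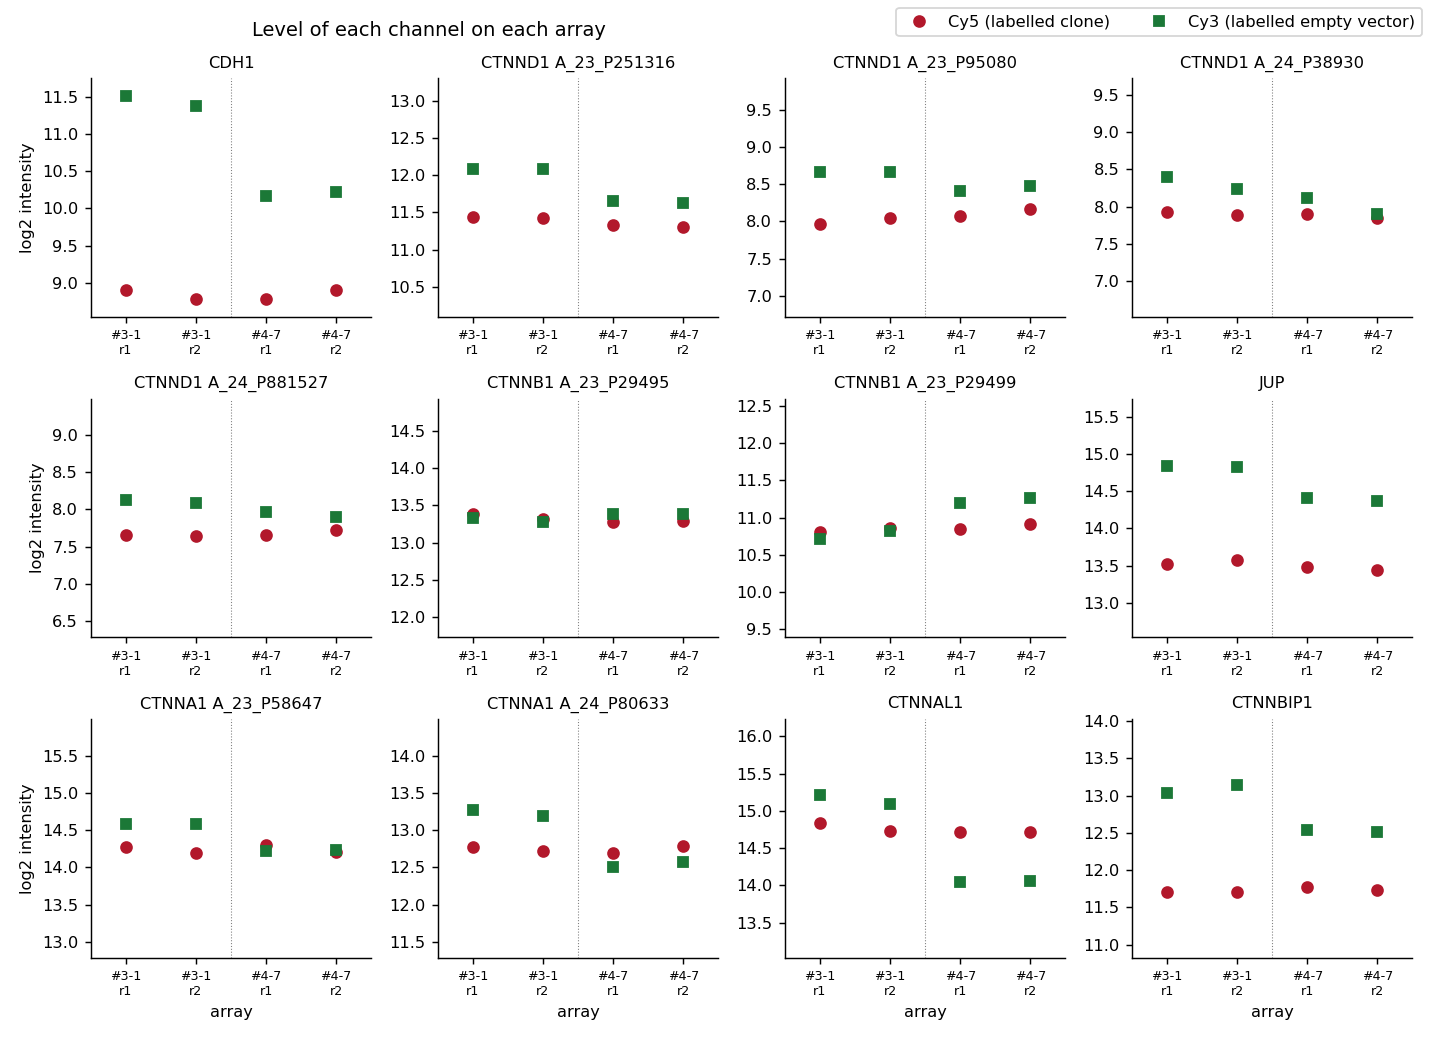
Normalised log2 intensity of Cy5 (circles) and Cy3 (squares) on each array for the 12 detected probes, with equal vertical spans in all panels. The Cy5 points of a probe lie within 0.19 of each other on the 4 arrays, and the Cy3 points of CDH1 and CTNNAL1 drop by more than 1 unit from the arrays of clone #3-1 to those of clone #4-7.

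The split between the channels was then counted over the set. Over the 4 arrays the Cy5 level of a detected probe moved by 0.07 to 0.19 and the Cy3 level by 0.12 (CTNNB1 A_23_P29495) to 1.34 (CDH1). In Cy5, 0 of the 14 probes differed between the clones past the threshold in limma, and 0 at an unadjusted p under 0.05, beside the 0.0927% of all probes given above (0.0317% higher and 0.061% lower on the arrays of clone #3-1). In Cy3, 8 of 14 did (57.1%, beside 18.4% of all probes). Of these, 7 were higher on the arrays of clone #3-1, namely those of CDH1, JUP, CTNNBIP1, CTNNAL1, both of CTNNA1 and A_23_P251316 of CTNND1, and A_23_P29499 of CTNNB1 was lower there. A_23_P29495 of CTNNB1 moved as little in Cy3 as in Cy5 (0.12 and 0.11 over the 4 arrays), and the other 3 probes of CTNND1 did not pass in Cy3 either. Of all probes 9.89% were higher and 8.51% lower in Cy3. With any 1 of the 4 arrays left out, 4 probes of the set passed in Cy3 and 0 in Cy5.

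**Figure D3:**
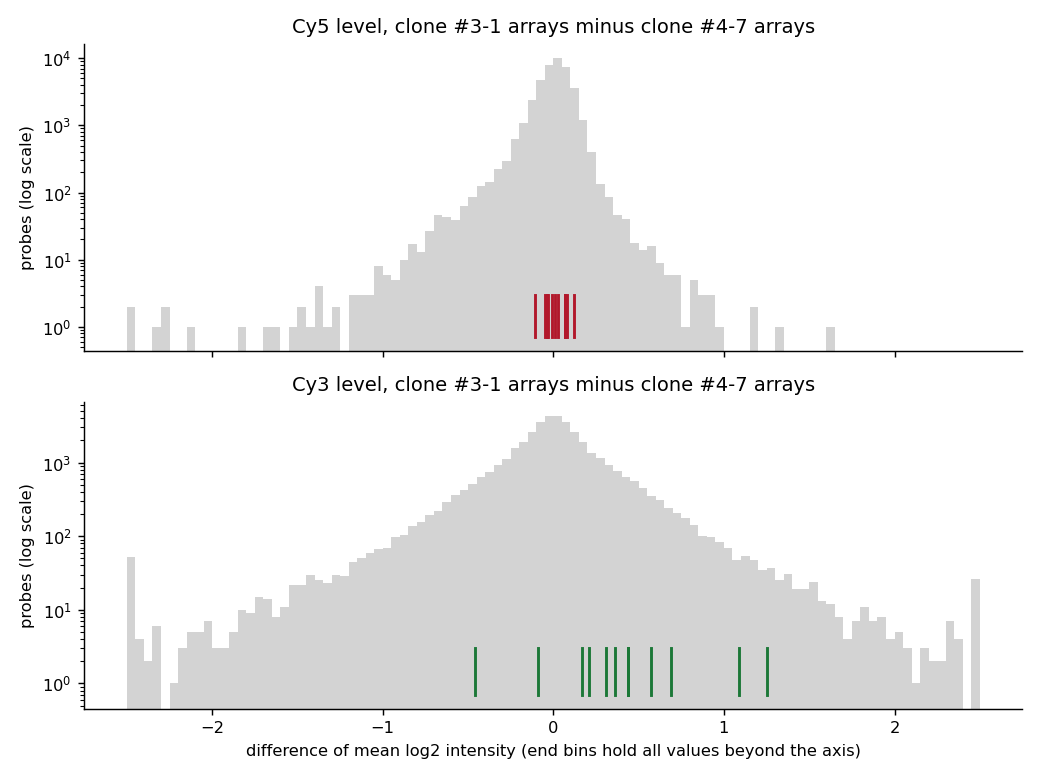
Number of probes (vertical axis, log scale) by the difference in mean log2 intensity between the arrays of clone #3-1 and clone #4-7 (horizontal axis), for Cy5 above and Cy3 below, with the 12 detected probes of E-cadherin and the catenins as coloured ticks and values beyond the axis in the end bins. The Cy5 ticks crowd around 0, and the Cy3 ticks spread from -0.46 to 1.25.

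Counted over the set, 10 of 14 probes passed the threshold in clone #3-1 and all 10 were lower in Cy5 (71.4%), beside 32.6% of all probes past it in either direction and 16.4% lower. None was higher (16.2% of all probes), with 1 higher at an unadjusted p under 0.05 in limma, a probe of CTNNA2 at background. In clone #4-7, 6 were lower and 2 higher (57.1% in all), beside 31% of all probes in either direction, 15% lower and 16% higher. CDH1, whose change was known beforehand, is among the probes counted in each clone. Without it, 9 probes passed in clone #3-1 and 7 in clone #4-7. The 10 in clone #3-1 include all 4 probes of CTNND1 and both of CTNNA1, so they stand for fewer genes. Background probes seldom pass, and among the 26916 probes above background in both channels on all arrays the shares past the threshold were 47.7% in clone #3-1 and 45.4% in clone #4-7. The CTNNA2 probes passed in neither clone, so of the 12 detected probes of the set 10 passed in clone #3-1 and 8 in clone #4-7. Leaving out either array of clone #4-7 left 3 lower there, and leaving out any 1 of the 4 arrays left 1 higher. The median log2 ratio of the 14 probes was -0.44 in clone #3-1 and -0.19 in clone #4-7, and that of all probes was 0.01 in both.

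The clones were compared probe by probe as well. Lower in Cy5 in both clones were 5 of 14 probes (35.7%, beside 7.64% of all probes): those of CDH1, JUP and CTNNBIP1, and 2 of CTNND1. Past the threshold with opposite signs were 2 of 14 (14.3%, beside 3.56%), CTNNAL1 and A_24_P80633 of CTNNA1. For both counts the share among detected probes alone was not taken, and it would be larger than that of all probes if background probes seldom pass. Without either array of clone #4-7 the 5 became 3, and without any 1 of the 4 arrays the 2 became 1. Both comparisons use the same empty vector RNA by the labels, so the clones are not independent of each other. Between the clones the difference passed for 7 of 14 probes (50%, beside 22.5% of all probes), and without CDH1 for 6. Of the 12 detected probes of the set 7 passed, beside 33.1% of all detected probes. Among the 7, 6 were more negative in clone #3-1 (11.5% of all probes) and 1, of CTNNB1, had the opposite sign (11%). The 7 became 4 without replicate 1 of clone #3-1 or either array of clone #4-7, and 5 without replicate 2 of clone #3-1. On every array the ratio of CDH1 was below that of each other detected probe of the set, by 0.39 (JUP) to 2.69 (CTNNB1) log2 units. That gap was not tested.

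**Figure D4:**
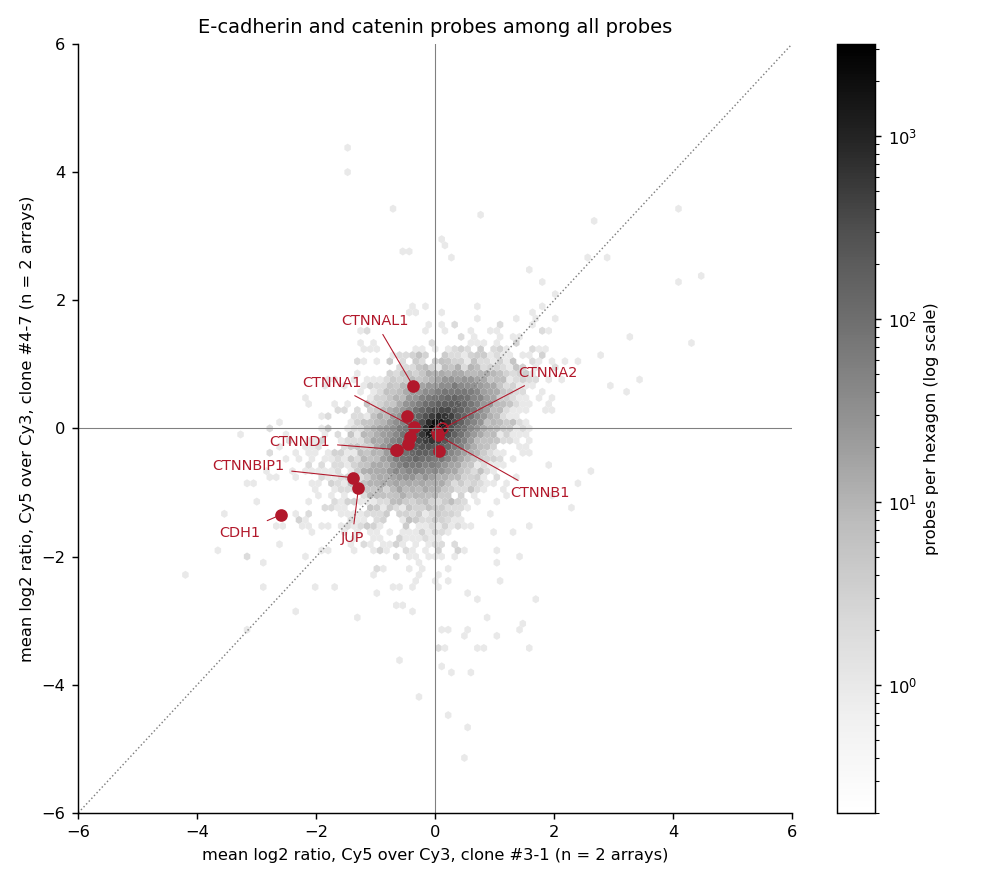
Mean log2 ratio of Cy5 over Cy3 in clone #3-1 (horizontal axis) and clone #4-7 (vertical axis) for all 41000 probes, as grey hexagons shaded by number, with the probes of E-cadherin and the catenins in red. CDH1, at -2.60 and -1.35, lies outside the dense cloud, JUP and CTNNBIP1 lie at its edge on the same side, and CTNNA2 lies near the centre.

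A promoter stretch is shown for JUP, which moved with CDH1. Repressors such as SNAI1 and ZEB1 are known to bind E-boxes of the letters CAGGTG, or CACCTG on the other strand, at CDH1. Both forms were searched in the 250 bases before each start site in the RefSeq windows for GRCh38.p14, which matched 6 of the 8 genes with 13 windows. CDH1 and CTNND1 had no window there, so their promoters were not searched. One of the 13 windows held the motif, the window of JUP at chr17:41785977-41786226 on the minus strand, with a match on each strand, in capitals.
JUP promoter, 250 bases before the start: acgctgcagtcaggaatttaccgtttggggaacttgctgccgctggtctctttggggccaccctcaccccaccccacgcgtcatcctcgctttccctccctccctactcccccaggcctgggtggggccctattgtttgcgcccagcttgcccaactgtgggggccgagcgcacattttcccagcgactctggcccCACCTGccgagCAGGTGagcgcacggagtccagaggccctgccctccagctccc
The matches begin 54 and 43 bases before the start. Of all 35116 windows 17.5% held at least 1 match and 2.53% held 2 or more. The window of CTNNBIP1, which also followed CDH1, and the other window of JUP held no match. The motif is a description of this stretch, and the arrays did not measure binding to it.

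Genes around the complex were described by 5 lists chosen by function. Of their 123 probes, 28 were higher (22.8%) and 21 lower (17.1%) in clone #3-1, beside 16.2% and 16.4% of all probes. In clone #4-7, 25 were higher (20.3%) and 23 lower (18.7%), beside 16% and 15% of all probes. Of these counts, that of lower probes in clone #3-1 was 9 and 10 without replicate 1 and 2 of that clone, and that of higher probes in clone #4-7 was 9 without either of its arrays. Of the 48 probes for 31 junction partners (nectins, actin linkers, cadherin kinases, phosphatases and proteases), 9 were higher (18.8%) and 12 lower (25%) in clone #3-1 and 17 higher (35.4%) and 7 lower (14.6%) in clone #4-7. Opposite signs past the threshold were seen for 7 (14.6%, beside 3.56% of all probes). All probes of NECTIN3 (named PVRL3 on the array), a nectin that recruits the cadherin complex, were among these 7. The brightest lay at 0.53 ± 0.02 (SD, n = 2) in clone #3-1 and -1.15 ± 0.01 in clone #4-7. The remaining calls came from single probes of ACTN4, TJP1, LIMA1 and SRC. The list had median log2 ratios of -0.03 and 0.13. The other classical cadherins of type I had 6 probes, of which 1 was lower in clone #3-1 and 2 in clone #4-7. CDH3 (P-cadherin) was lower in both, at -1.39 ± 0.03 (SD, n = 2) and -0.91 ± 0.04, with adjusted p = 1.6e-05 and 3.9e-05 in limma. CDH15 (M-cadherin), at 0.01 and -0.61, was the other probe past the threshold in clone #4-7. CDH2 (N-cadherin), which often replaces E-cadherin in mesenchymal cells, was not above background on any array.

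The β-catenin side of the complex was described in the same way. Among 26 probes for 13 genes of β-catenin turnover, 8 were higher (30.8%) and 4 lower (15.4%) in clone #3-1, and 5 higher (19.2%) and 7 lower (26.9%) in clone #4-7, beside the 15% to 16.4% of all probes in each direction. The brightest of 3 probes of AXIN2, a scaffold of the destruction complex and itself a known target of β-catenin, was 1.88 ± 0.04 (SD, n = 2) in clone #3-1 and -0.61 ± 0.01 in clone #4-7, the difference passing at 2.49 (unadjusted p = 2.4e-08 in limma). The brightest of 4 probes of APC2, a homologue of APC, was 0.35 ± 0.03 (SD, n = 2) and -1.76 ± 0.03. The probes of APC2 disagreed: A_23_P101908 gave 0.39 and -1.35, while A_24_P254133 (-0.02 and -0.09) and A_24_P76844 (0.11 and 0.17) passed in neither clone. For the brightest probes of AXIN2 and APC2 the Cy5 level differed between the clones by 0.04 and -0.09 and the Cy3 level by -2.45 and -2.20. Of 29 probes for 18 nuclear partners of β-catenin, 8 were higher (27.6%) and 3 lower (10.3%) in clone #3-1, and 1 higher (3.45%) and 5 lower (17.2%) in clone #4-7, beside the same shares.

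The 10 known repressors of CDH1 had 14 probes, of which 5 were above background in both channels on all arrays. In clone #3-1, 3 were higher (21.4%, beside 16.2% of all probes) and 1 lower (7.14%, beside 16.4%). The higher ones were ZEB1, with Cy3 above background on 2 of 4 arrays, at 0.57 and both probes of TCF3 at 0.55 and 0.41. The lower one was SNAI1 at -0.32. In clone #4-7, 2 were higher (14.3%, beside 16% of all probes) and 2 lower (14.3%, beside 15%). The higher ones were TCF3 at 0.23 and KLF8, also with Cy3 above background on 2 arrays, at 0.43. The lower ones were SNAI1 at -0.96 and TWIST1 at -0.34. ZEB1, at -0.07, and the second TCF3 probe, at 0.15, did not pass there. The study reports lower ZEB1 in both clones, as mRNA and as protein. With the labels as they stand, the ratio of ZEB1 in clone #3-1 has the opposite direction. SNAI1 was thus lower in Cy5 in both clones, as CDH1 was. ZEB2, TCF4 and GSC were not above background on any array.

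**Figure D5:**
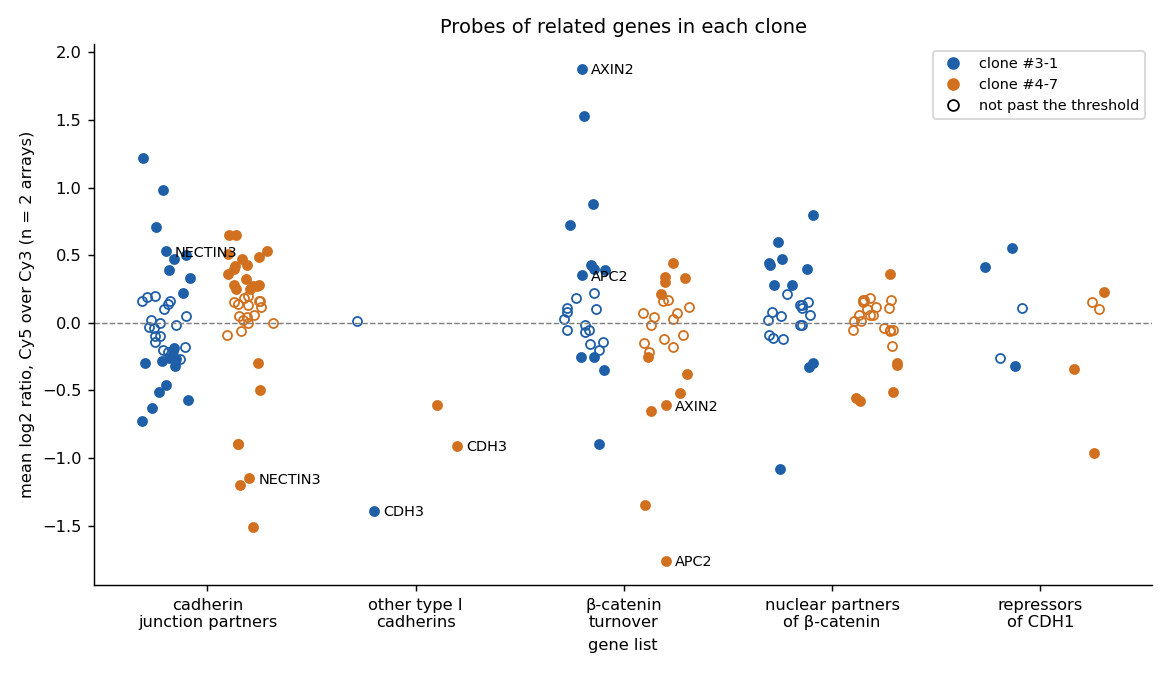
Mean log2 ratio of Cy5 over Cy3 (vertical axis) for the detected probes of 5 gene lists (horizontal axis) in clone #3-1 (blue) and clone #4-7 (orange), filled where the probe passed the threshold and detected meaning above background in both channels on all arrays. The named points are the brightest probe of a gene, and those of AXIN2, APC2 and NECTIN3 lie above 0 in clone #3-1 and below it in clone #4-7, while CDH3 lies below 0 in both.

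The probes most like CDH1 over the 4 arrays, by Euclidean distance of the log2 ratios among 20420 named probes above background throughout, were those of CD33 (0.24), ALOX5 (0.29), PSCD4 (now CYTH4, 0.40), CD33 again (0.50) and HLA-DRB5 (0.51). CD33 is a sialic acid-binding receptor and ALOX5 the enzyme that begins leukotriene synthesis. Their means ran from -2.60 to -2.25 in clone #3-1 and from -1.52 to -1.32 in clone #4-7, close to the -2.60 and -1.35 of CDH1. HLA-DRB5 shares sequence with other HLA-DRB genes, so its signal is uncertain as to gene. The likeness rests on 4 arrays and is a description.

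Markers of the labelled cell type moved with CDH1 in part. Of 11 colon epithelial markers, 8 were above background in both channels on all arrays, and CDX1, VIL1 and CDH17 were not on any. Of their 17 probes, 6 were lower (35.3%, beside 16.4% of all probes) and 0 higher (beside 16.2%) in clone #3-1 (2 of 17 had an unadjusted p under 0.05 and a positive ratio in limma), and 6 were lower and 1 higher in clone #4-7 (beside 15% and 16%). Of the detected probes of the array, 47.7% passed in either direction in clone #3-1. EPCAM, an epithelial adhesion molecule, was -1.04 ± 0.00 (SD, n = 2) in clone #3-1 and -0.44 ± 0.02 in clone #4-7. Both passed, with adjusted p = 1.9e-05 and 0.00018 in limma. KRT19, a keratin of simple epithelia, passed with opposite signs, at -0.80 ± 0.11 (SD, n = 2) and 0.36 ± 0.07. The keratin KRT8 was lower in both clones with each of its probes (A_23_P14072 at -0.69 and -0.90). KRT18 was lower in both with A_23_P99320 (-0.29 and -0.46) and A_24_P42136 (-0.26 and -0.44). Its brightest probe, A_32_P151544, passed only in clone #4-7 (-0.10 and -0.37), and A_24_P924957 (0.01 and -0.10) passed in neither. KRT20, CDX2, LGALS4 and GPA33 also passed in neither clone. The mean log2 level of the 17 probes was 10.07 to 10.14 in Cy5 and 10.27 to 10.31 in Cy3 over the 4 arrays, with the clones overlapping. The summed signal, to which KRT19 contributes with a Cy3 difference of 1.17 between the clones, ran from 453000 to 469000 over the 4 arrays in Cy5, and in Cy3 from 667000 to 692000 in clone #3-1 and from 503000 to 533000 in clone #4-7. Among markers of other cell types, PTPRC of leukocytes, COL3A1 of fibroblasts and PECAM1 of endothelium were not above background on any array. COL1A1, a collagen of fibroblasts, was -0.59 ± 0.00 (SD, n = 2) in clone #3-1 and -1.13 ± 0.01 in clone #4-7, and passed in both (adjusted p = 6.3e-05 and 1.9e-05 in limma). Probe A_23_P105562 of VWF, an endothelial clotting protein, was -0.35 ± 0.02 (SD, n = 2) and -0.44 ± 0.03, and passed in both (adjusted p = 0.0004 and 0.0002 in limma). CD3E, a part of the T-cell receptor complex, passed in neither clone with its 2 probes, which lay between -0.02 and 0.09. Their part in the CDH1 ratio was not tested. In RNA of whole cultures, fewer cells with a transcript and less of it per cell cannot be told apart.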

How the data were processed

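Total RNA of 2 HCT116 clones with N-BLR shRNA and of the empty vector control was hybridised to 4 two-colour Agilent arrays, 2 per clone. The authors deposited the scanner output, with a mean intensity and a local background intensity per spot and dye, made with Agilent Feature Extraction (8.5.1.1 per the labels), and a table of log10 ratios. That deposited log10 table lay within 0.00499 of the scanner's own log10 ratio on every array, with a median of 0, and served as an alternative.

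Intensities were corrected with normexp (offset 50), given a loess normalisation for each array, then a quantile normalisation across the 4, and averaged over the spots of a probe in limma 3.58.1 under R 4.3.3. Control spots and 87 to 125 outlier spots per array were left out. Log2 ratios of all 41000 probes were fitted with 1 term per clone, and tested by limma's moderated test at an unadjusted p of 0.001, the threshold of the study's methods, with Benjamini-Hochberg adjusted p over all probes. The control is 1 RNA, so a ratio against 0 leaves out its own spread. The number of arrays limits the precision. Between 68.5% and 72.6% of spots were well above background in a channel.

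Of the probes, 23434 matched a current gene symbol. Sequences of probes came from the array files and those of promoters from RefSeq. Genes outside the set were named where a probe passed in both clones with a log2 ratio of at least 1 in size in either, taking the brightest probe. The repressors, CDH15 and the cell type markers were named after their values were seen. The counts and summed signal of the markers of other cell types are not reported here. For the likeness to CDH1, the 5 nearest probes were taken. The members and lists were chosen with earlier results of these data known. The fit was tested on simulated data with 200 changed probes among 41000. It recovered 197 for each clone, 194 for the difference and 181 for a single channel. The recovery was not counted by size of ratio, and for ratios as small as those of most catenin probes it was not tested. The alternatives were other background corrections, normalisations, filters, priors and thresholds, a replicate block and leaving out each array.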

Additional observations from a re-analysis of the deposited data

Results flagged for a closer look

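The log2 ratio differed between the clones past the threshold for 7 probes of the set (clone #3-1 minus clone #4-7, limma contrast in the fit over all probes). The difference was -1.25 for CDH1, -0.68 for A_24_P80633 of CTNNA1, 0.41 for A_23_P29499 of CTNNB1, -0.33 for A_23_P251316 of CTNND1, -0.36 for JUP, -1.02 for CTNNAL1 and -0.61 for CTNNBIP1. For each of these probes the Cy3 level also differed between the clones past the threshold, and the Cy5 level did not.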

How the results depend on the processing

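The ratio of CDH1 kept its direction and its call in each clone and between the clones under every alternative run (-2.82 to -2.58, -1.55 to -1.32 and -1.29 to -1.22), as did those of JUP, CTNNBIP1 and CTNNAL1 in each clone. Of the values of the 8 probes of CTNND1, CTNNB1 and CTNNA1, 128 of 144 in clone #3-1, 108 of 144 in clone #4-7 and 106 of 136 between the clones kept direction and side of the threshold. The difference between the clones did so for CTNNAL1 in 17 of 17, CTNNBIP1 in 13 of 17 and JUP in 8 of 17. CTNNA1 A_23_P58647 in clone #4-7 turned sign, to -0.05 with Aquantile and with no normalisation between arrays, -0.01 with processed signals and with the deposited table, and -0.03 without replicate 1 of clone #4-7 (-0.03 to 0.08 with 1 array left out). The Cy5 level of CDH1 between the clones turned to 0.01 (normexp offset 0), 0.02 (plain subtraction), 0.04 (no background correction), 0.27 (processed signals) and 0.05 (without replicate 2 of either clone), ranging from -0.07 to 0.05 with 1 array left out.

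The count of higher probes of the set in clone #4-7 was 1 with offset 0, subtraction, median, Aquantile or no normalisation between arrays, processed signals, each clone on its own arrays and every array left out (1 to 1), and that of lower probes was 3 to 6 with 1 array left out. Between the clones the higher count was 0 and the lower 3 with offset 0, subtraction and processed signals, 2 and 10 with Benjamini-Hochberg at 0.05, the higher 2 with an intensity trend, and 0 to 1 with 1 array left out. The 8 probes that differed in Cy3 became 3 (offset 0), 2 (subtraction), 4 (processed signals) and 4 to 4 with 1 array left out. Of the 5 lists, lower probes in clone #3-1 became 8 (offset 0), 9 (subtraction, processed signals), 12 (deposited table), 34 (Benjamini-Hochberg) and 9 to 14 with 1 array left out. There the higher probes became 43 with Benjamini-Hochberg. Higher probes in clone #4-7 became 12 (offset 0), 6 (subtraction), 9 (processed signals), 15 (deposited table), 39 (trend), 44 (Benjamini-Hochberg) and 9 to 20 with 1 array left out, and lower probes 15 (subtraction). The cause of these changes was not tested.

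The clones share replicate numbers, but same-numbered arrays did not deviate together (r = -0.01 over 40940 probes). With 2 arrays per clone and after normalisation, this value cannot show whether same-numbered arrays shared a culture or a labelling day. With the replicate number as a block, 1 probe of the set was higher in clone #4-7 in place of 2 and 5 differed in Cy3 in place of 8. The calls of CTNNA1 A_24_P80633 in clone #4-7 and of the differences of JUP and CTNND1 A_23_P251316 were lost, and that of the difference of CTNNA1 A_23_P58647 was gained. Turning the dyes changes each sign and no size. The probes of CTNNA2 were at background, so no level was measurable.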
